A study of Mus musculus with 9 samples.

Results

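A set of 9 mouse genes of the complement system was followed across all samples of the series: C1qa, C1qb, C1qc, C2, C3, C4b, Cfb, Serping1 and C3ar1. They were chosen by symbol as rows of the raw count table, not by a cut on their measured values, although earlier results of these data were known. All 9 of 9 were found among the 48587 genes of the table. Another 45 complement genes, for a total of 54, were listed beside them to show the rest of the cascade.

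Complement is a cascade of plasma proteins that tags cells and debris. The classical pathway starts with C1q, a molecule built from 3 chains, whose bound proteases cleave C4 and C2 into a convertase that splits C3. The alternative pathway uses factor B (Cfb) to make a second C3 convertase, C1 inhibitor (Serping1) blocks the proteases of C1, and C3ar1 is the receptor for the C3a fragment released from C3. In the retina, C1q transcripts are known mostly from microglia, the resident macrophages, while other components can be made by glia, pigment epithelium and immigrating cells.

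Whole retinas of C57BL/6J mice aged 12 weeks were profiled by poly-A RNA sequencing, with 3 samples in each of 3 groups and 6 retinas pooled per sample. In the RVO group, all veins of one eye were occluded with a 532 nm laser at d0 after intraperitoneal eosin Y, a photosensitizer, under ketamine and xylazine. The control group consisted of the fellow eyes of those mice, which received the same laser scheme between the large vessels, and both groups were taken at d2. Eosin Y, anaesthesia and laser burns are shared by RVO and control, while untreated mice received no laser, and whether they were given eosin Y or anaesthesia is not given in the sources used here. A control eye is therefore not an unaffected eye, and a systemic effect of the treatment of one eye on the other cannot be told apart from the effect of its own laser burns. Because retinas were pooled, p-values measure the spread between pools, not between single mice.

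Levels are given as CPM, counts per 1000000 counts of the library after TMM scaling. Total counts were 12377572 to 15245869 per untreated, 18897218 to 23419497 per control and 21022997 to 28993921 per RVO sample. RVO sample 2 stood apart from its group. Its counts differed from RVO 1 by a chi-square of 59.5 and from RVO 3 by 32.1 per degree of freedom, where the other 7 replicate pairs gave 3.34 to 10.1. The summed level of 9 retinal neuron markers was high in every sample, at 79280 to 81120 CPM in untreated, 51000 to 62140 in control and 40310 to 44620 in RVO. Lens markers, which do not belong to the retina, were at 1.22 to 7.66 CPM in untreated samples but at 87.8 to 1127 in control and 72.8 to 2670 in RVO, with RVO 2 the highest. Hepatocyte markers were nearly absent, with a sum of 0.542 to 1.72 CPM over all 9 samples, and Alb, the liver's main plasma protein, had 0 counts in every untreated sample and at most 3 elsewhere.

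Upstream sequences of the RefSeq models (assembly GRCm38.p6) are shown for C3, whose level separated all 3 groups, and for the neighbouring chains C1qb and C1qc, which moved together most closely. Each reads 5′ to 3′ toward the transcription start on the minus strand and stops before the first annotated exon base, so that C3 spans chr17:57228137-57228386, C1qb chr4:136886201-136886450 and C1qc chr4:136893066-136893164. Capitals mark matches to any of 5 motifs searched on both strands.
C3: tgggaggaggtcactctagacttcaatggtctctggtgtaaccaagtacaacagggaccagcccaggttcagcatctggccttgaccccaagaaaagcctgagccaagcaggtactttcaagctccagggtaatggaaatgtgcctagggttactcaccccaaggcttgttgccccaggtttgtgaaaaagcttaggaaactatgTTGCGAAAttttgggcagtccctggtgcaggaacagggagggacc
C1qb: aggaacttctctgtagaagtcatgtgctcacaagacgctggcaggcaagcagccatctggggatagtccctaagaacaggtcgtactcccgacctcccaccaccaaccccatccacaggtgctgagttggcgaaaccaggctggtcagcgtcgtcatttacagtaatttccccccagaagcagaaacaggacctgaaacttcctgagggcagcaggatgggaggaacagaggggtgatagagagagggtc
C1qc: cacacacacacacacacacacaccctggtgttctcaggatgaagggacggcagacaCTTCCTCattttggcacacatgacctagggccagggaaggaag
The capitals in C3 are a match to the C/EBP motif TTGCNNAA, a family of factors known for acute-phase genes, starting 45 bases before the start, and 10.8% of all 32851 promoter windows of 300 bases held one. Those in C1qc are a match to the PU.1 motif GAGGAAG on the opposite strand, held by 13.6% of windows. The C1qc window also held a kappa-B consensus match 41 bases before the RefSeq start (4.51% of windows), which lies within the annotated gene and is not printed. Neither the STAT motif TTCNNNGAA (8.3% of windows) nor the interferon-stimulated response element GAAANNGAAA (3.44%) was found in the windows of C3, C1qb, C1qc or C3ar1. These matches are letters in a window and say nothing of binding.

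C3, C4b, Serping1 and C3ar1 rose after both kinds of laser treatment, and C3 alone was called higher by edgeR in RVO than in control. A gene was called when its adjusted p was under 0.01 in edgeR's quasi-likelihood test with Benjamini-Hochberg adjustment over all genes tested in that comparison. Against untreated retinas, 4 of 9 genes were higher in RVO, where 27.4% of all 16380 genes tested were called higher. The same 4 of 9 were higher in control, where 27.2% of 16066 genes were. Between RVO and control, 1 of 9 was higher, where 2.7% of 16874 genes were. None of the 9 was called lower in edgeR or in DESeq2 in any comparison, where edgeR called 24.6%, 25.2% and 0.634% of all genes lower. At an unadjusted p under 0.05, 2, 1 and 1 of the 9 were lower in these comparisons. The median log2 fold change of the 9 genes was 1.37 in RVO and 0.32 in control against untreated, and 0.27 in RVO against control, beside medians of 0.0081, 0.013 and 0.019 over all genes tested. Both comparisons with untreated retinas share the same 3 untreated samples.

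**Figure D1:**
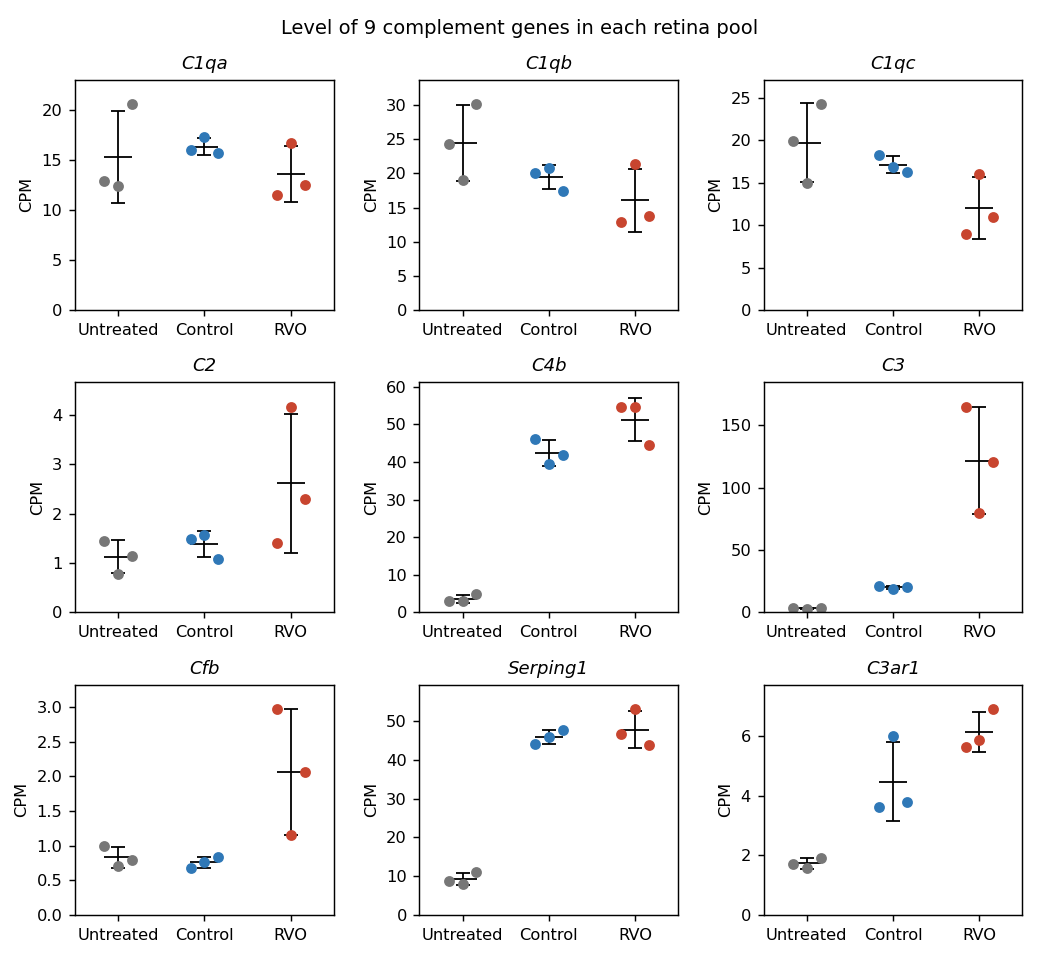
Level of each of the 9 genes in CPM (linear axis from 0) in the 3 pools of each group; points are pools, and the black bars are the mean ± SD (n = 3). C3 separates all 3 groups, C4b, Serping1 and C3ar1 separate untreated from both lasered groups, and the C1q chains overlap between untreated and both lasered groups.

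**Figure D2:**
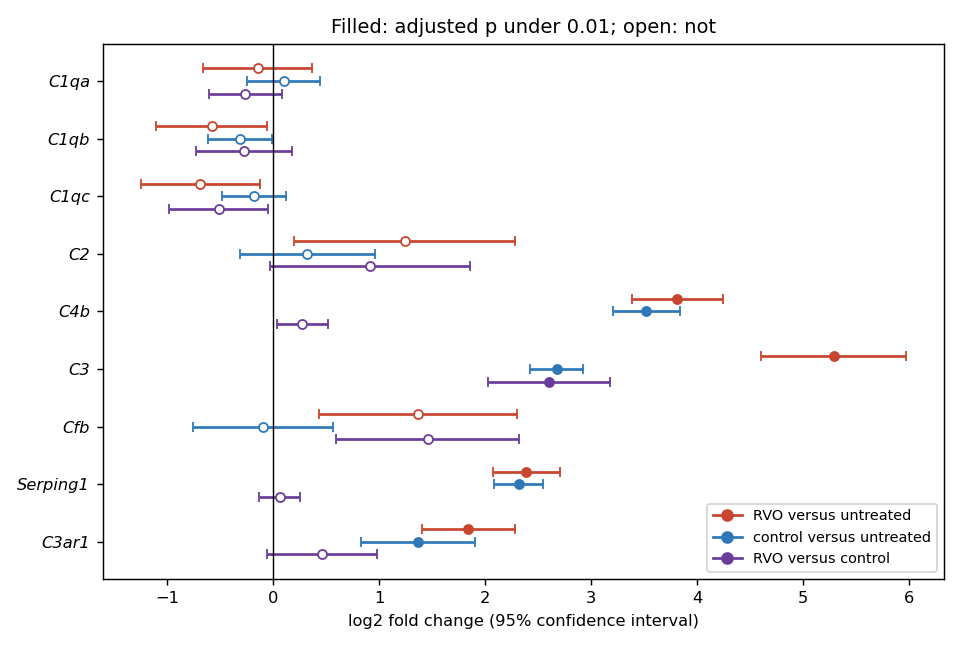
Log2 fold changes of the 9 genes in the 3 comparisons with their 95% confidence intervals; filled points passed an adjusted p of 0.01 in edgeR and open points did not. C3 has the largest value against untreated (5.29) and is the only filled point for RVO versus control.

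C1q was the most abundant of these transcripts in untreated retinas, and its 3 chains were not called in any comparison. The genes lie side by side on the minus strand of chromosome 4 (GRCm38), with C1qb at 136880129 to 136886187, C1qc at 136889804 to 136893065 and C1qa at 136895917 to 136898803. C1qa was at 12.9, 12.4 and 20.5 CPM in untreated, 15.98, 17.2 and 15.6 in control and 11.5, 16.7 and 12.5 in RVO samples 1 to 3. C1qb was at 24.3, 19.0 and 30.1 CPM in untreated, 20.1, 20.8 and 17.5 in control and 12.9, 21.4 and 13.7 in RVO. C1qc was at 19.9, 14.9 and 24.2 CPM in untreated, 18.2, 16.9 and 16.3 in control and 8.96, 16.1 and 11.0 in RVO. Untreated sample 3 was the highest of its group and RVO 2 the highest of its own for all 3 chains, and untreated and RVO overlapped for each chain.

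The log2 fold change in RVO against untreated was -0.15 for C1qa (95% confidence interval -0.66 to 0.37, edgeR adjusted p = 0.58), -0.58 for C1qb (-1.10 to -0.059, adjusted p = 0.050) and -0.69 for C1qc (-1.25 to -0.13, adjusted p = 0.034). In control against untreated the values were 0.10 (-0.24 to 0.44), -0.32 (-0.62 to -0.013) and -0.19 (-0.49 to 0.12). Against control, RVO gave -0.26 (-0.61 to 0.083), -0.28 (-0.73 to 0.17) and -0.52 (-0.99 to -0.046) for C1qa, C1qb and C1qc. C1qc did not overlap between RVO and control, while C1qa and C1qb did. Without RVO sample 2, C1qb (log2 fold change -0.83, edgeR adjusted p = 0.00028) and C1qc (-0.95, adjusted p = 0.00027) were called lower in RVO than untreated. Without it, all 3 chains were also lower than in control, with log2 fold changes of -0.46 for C1qa, -0.56 for C1qb and -0.81 for C1qc (edgeR adjusted p = 0.0039, 0.0018 and 0.00042). In these fits without RVO sample 2, 64.4% of all genes tested were called in either direction against untreated and 36.4% against control.

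The chains are rich in G and C, at 59.5% for C1qa, 57.4% for C1qb and 57.5% for C1qc, above 94.7%, 88.3% and 88.9% of the genes tested. With each sample's trends in GC content and transcript length removed, an alternative chosen after the data were seen, all 3 chains were called lower against untreated. The log2 values were then -1.02, -1.39 and -1.49 in RVO and -0.68, -0.99 and -0.85 in control for C1qa, C1qb and C1qc. Leaving out untreated sample 2 led to a call of C1qb lower in control (-0.48, edgeR adjusted p = 0.0055), and leaving out untreated sample 3 to a call of C1qa higher in control (0.37, adjusted p = 0.00904). In these fits of control against untreated, 41.6% and 48.7% of all genes tested were called in either direction. In bulk retina, fewer cells of a type and less RNA per cell cannot be told apart.

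Most markers of microglia fell. Of 10 markers, 7 were lower in RVO and 8 in control against untreated, and none was higher. Of all genes tested, 24.6% and 25.2% were called lower in these comparisons. Median log2 fold changes of the markers were -1.83 and -1.43. Their summed level was 147.7 to 227.6 CPM in untreated, 84.8 to 95.5 in control and 53.0 to 85.3 in RVO. P2ry12, a purinergic receptor of resting microglia, was at a mean of 20.2 ± 6.08 CPM (SD, n = 3) in untreated, 2.44 ± 0.095 in control and 0.811 ± 0.404 in RVO, a log2 fold change of -4.62 in RVO against untreated (edgeR adjusted p = 2.7e-05). Tmem119, another such marker, fell by 3.15 on the log2 scale. The ratio of summed C1q CPM to P2ry12 CPM was 2.83 to 3.23 in untreated, 21.1 to 22.6 in control and 42.5 to 61.7 in RVO samples, and the 3 groups did not overlap. The ratio to Tmem119 was 4.08 to 4.46, 12.7 to 15.99 and 24.5 to 33.8. With 3 samples against 3, an exact two-sided permutation test of these log2 ratios gave p = 0.1 between each pair of groups, the smallest value that this design allows (0.13 after Benjamini-Hochberg adjustment over the 60 ratio tests made).

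Another marker shared by macrophages stood closer to C1q. The ratio of C1q to Csf1r, a growth factor receptor of macrophages, was 1.48 to 1.59 in untreated, 1.87 to 2.25 in control and 2.12 to 2.31 in RVO. With the GC and length trends removed, Csf1r gave -1.40 in RVO against untreated on the log2 scale, within the range of the C1q chains, while P2ry12 (-4.05) and Tmem119 (-3.90) lay below all 3 chains.

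**Figure D3:**
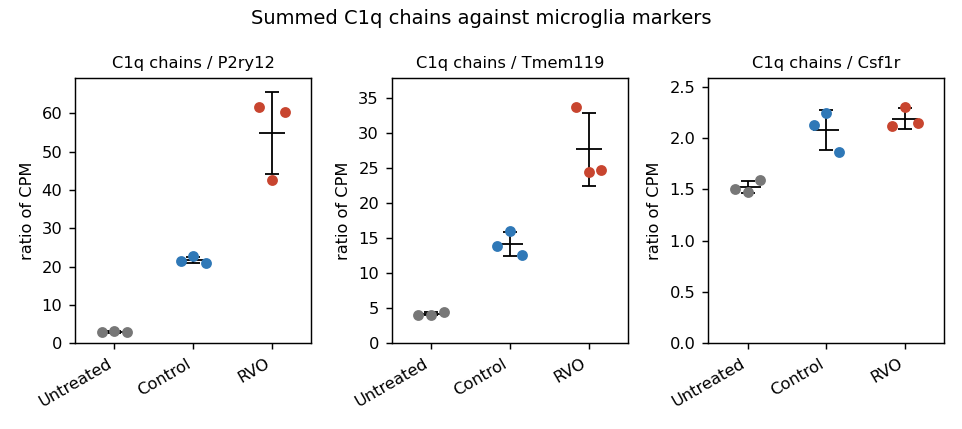
Ratio of the summed CPM of C1qa, C1qb and C1qc to the CPM of 3 microglia markers in each pool, on linear axes from 0 that differ between panels; points are pools and bars the mean ± SD (n = 3). The ratio to P2ry12 runs from 2.83 to 3.23 in untreated to 42.5 to 61.7 in RVO, while the ratio to Csf1r stays between 1.48 and 2.31.

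Among chains, C1qb and C1qc kept the closest proportion. Per length, in CPM divided by the exonic length in kilobases (RPKM), the ratio of C1qc to C1qb was 0.443 to 0.462 in untreated, 0.457 to 0.526 in control and 0.39 to 0.45 in RVO. RVO and control did not overlap in this ratio (exact two-sided permutation p = 0.1, 0.13 adjusted over the 60 tests), while each overlapped with untreated. The ratio of C1qa to C1qb was 0.556 to 0.713 in untreated, 0.832 to 0.936 in control and 0.816 to 0.949 in RVO, so both lasered groups lay above the untreated samples (exact two-sided permutation p = 0.1 for each, the smallest possible, and 0.13 adjusted over the 60 tests).

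C4b, the complement C4 gene of the classical pathway, rose in both lasered groups to nearly the same level. It lies at 34728380 to 34743882 on the minus strand of chromosome 17. C4b was at 3.00, 3.13 and 4.93 CPM in untreated, 46.2, 39.4 and 42.0 in control and 54.6, 54.7 and 44.6 in RVO. All 6 lasered samples were above all untreated ones, and control and RVO overlapped. The log2 fold change was 3.81 ± 0.19 (SE) in RVO, which is 14.1-fold (95% interval 10.4 to 18.9, edgeR adjusted p = 4.2e-06), and 3.52 ± 0.14 in control, which is 11.5-fold (9.25 to 14.3, adjusted p = 8.1e-09). Between RVO and control it was 0.27 (0.035 to 0.51, adjusted p = 0.073) and was not called.

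C4b has a near-identical copy, C4a, 65210 bases away, so that reads may be split between them. C4a also rose, by 1.40 in RVO and 1.16 in control on the log2 scale, the latter not called with GC and length trends removed (0.76, edgeR adjusted p = 0.012). The ratio of C4b to C4a counts was 1.74 to 3.00 in untreated, 10.5 to 14.2 in control and 10.9 to 17.6 in RVO. With the counts of both genes added, C4 rose by 3.42 and 3.14 on the log2 scale.

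C2, the protease that joins C4 in the convertase, was scarce and not called. It lies at 34862604 to 34898265 on chromosome 17, minus strand, directly beside Cfb. C2 was at 1.45, 0.782 and 1.14 CPM in untreated, 1.49, 1.57 and 1.09 in control and 1.40, 4.17 and 2.29 in RVO. RVO 2, at 98 counts, was the highest and RVO 1 lay within the untreated range. The log2 fold change was 1.24 (0.20 to 2.28, edgeR adjusted p = 0.039) in RVO and 0.32 (-0.32 to 0.96) in control against untreated, and 0.91 (-0.035 to 1.85) in RVO against control. Without RVO sample 1 it was called higher in RVO than untreated (1.57, adjusted p = 0.0053).

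C3, the central component on which all pathways converge, showed the largest change of the 9 genes in both comparisons of RVO, while in control C4b changed more. It lies at 57203970 to 57228136 on chromosome 17, minus strand. C3 was at 3.36, 2.97 and 3.22 CPM in untreated, 21.1, 19.0 and 20.2 in control and 164.7, 79.6 and 120.7 in RVO. The groups did not overlap in any pair, and even RVO 2, the lowest of its group, was well above the highest control sample. C3 rose 39.1-fold in RVO against untreated (log2 5.29 ± 0.30 SE, edgeR adjusted p = 7.3e-06) and 6.39-fold in control (2.68 ± 0.12, adjusted p = 1.0e-08).

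Against control, C3 was 6.07-fold higher in RVO (95% interval 4.06 to 9.08, log2 2.60 ± 0.25, edgeR adjusted p = 0.0057). In all 13 alternatives its log2 fold change was 2.31 to 2.81 and adjusted p from 1.3e-24 to 0.045. Among the fits that left out 1 sample, the call at 0.01 was lost, by adjusted p, without control sample 1 (0.038), control 2 (0.017), control 3 (0.045) or RVO 3 (0.037). In the same fits edgeR called 0 or 1 of all genes without a control sample or RVO 3, with 6100 to 6916 genes at an unadjusted p under 0.05. DESeq2 on all RVO and control samples called 4038 genes, C3 among them.

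Cfb, the protease of the alternative C3 convertase, was low in all groups and followed C3 among RVO samples. It lies at 34856374 to 34862518 on chromosome 17, minus strand, 86 bases from C2. Cfb was at 1.00, 0.704 and 0.786 CPM in untreated, 0.679, 0.759 and 0.838 in control and 2.97, 1.15 and 2.07 in RVO, from 9 to 93 counts per sample. All 3 RVO samples were above all others, and untreated and control overlapped. The log2 fold change was 1.37 (0.43 to 2.30, edgeR adjusted p = 0.017) in RVO against untreated and 1.46 (0.59 to 2.32, adjusted p = 0.023) against control, and neither passed 0.01. Against untreated it did pass with library size only (adjusted p = 0.0085), without a filter on low counts (0.0028) and with all 9 samples in one fit (0.0077). In control it was -0.095 (-0.76 to 0.57) against untreated.

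Without RVO sample 2, Cfb was called higher than untreated (1.67, edgeR adjusted p = 2.0e-04) and than control (1.72, adjusted p = 5.6e-04). A DESeq2 Wald test on all RVO and control samples also called it against control (1.44, adjusted p = 0.0060). The read-through model Gm20547 on the same strand covers 79.5% of the exonic bases of Cfb and 42.8% of those of C2, and it had 0 counts in every sample. How reads shared by overlapping genes were treated is not given in the sources used here, so the levels of Cfb and C2 are uncertain.

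Serping1, encoding C1 inhibitor, rose to the same level in both lasered groups. It lies at 84765387 to 84775444 on chromosome 2, minus strand. Serping1 was at 8.82, 7.98 and 11.1 CPM in untreated, 44.1, 45.9 and 47.8 in control and 46.6, 53.0 and 43.7 in RVO. The lasered samples were all above the untreated ones, and control and RVO overlapped. The rise was 5.24-fold in RVO (log2 2.39 ± 0.14 SE, edgeR adjusted p = 8.4e-06) and 4.98-fold in control (2.32 ± 0.11, adjusted p = 1.8e-08). RVO against control gave a log2 fold change of 0.059 with an interval of -0.14 to 0.26, which in folds is 0.909 to 1.19.

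C3ar1, the receptor for C3a on myeloid cells, rose after both treatments. It lies at 122847138 to 122856161 on chromosome 6, minus strand. C3ar1 was at 1.73, 1.56 and 1.93 CPM in untreated, 3.62, 6.02 and 3.81 in control and 5.64, 5.87 and 6.91 in RVO. Control sample 2 lay within the RVO range, and no lasered sample reached down to the untreated ones. The rise was 3.58-fold in RVO (log2 1.84 ± 0.19 SE, edgeR adjusted p = 1.0e-04) and 2.58-fold in control (1.37 ± 0.25, adjusted p = 3.7e-04). The difference between RVO and control was 0.46 (-0.061 to 0.98, adjusted p = 0.14).

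The level of C3ar1 was also set beside that of other myeloid genes. Its ratio to Itgam, a chain of complement receptor 3, was 0.294 to 0.351 in untreated, 0.348 to 0.454 in control and 0.214 to 0.334 in RVO. Its ratio to Csf1r was 0.0411 to 0.05, 0.142 to 0.246 and 0.249 to 0.399. Of 10 monocyte and macrophage markers, 8 rose in RVO (median log2 fold change 2.62, or 2.21 with genes at the count floor set to their bound). In control, 7 of 9 tested rose (1.40). Of all genes tested, 27.4% and 27.2% were called higher in these comparisons. Lyz2, a lysozyme of myeloid cells, and Arg1 were higher in RVO than in control, where 2.7% of all genes were called higher. Both calls were lost when control 2, control 3 or RVO 3 was left out, where edgeR called 0 of all genes. The summed level of the 10 markers was 36.7 to 37.8 CPM in untreated, 104.6 to 135.9 in control and 203.3 to 251.9 in RVO. Neutrophil markers summed to 0.156 to 1.07, 6.20 to 18.2 and 34.6 to 86.1 CPM, with Ly6g, Elane, Mpo, Retnlg and Cxcr2 at 0 in untreated samples. In RVO the sum came mainly from S100a8, S100a9 and Cxcr2, at means of 25.7, 30.7 and 7.14 CPM. Elane was at 0 in RVO as well, and Ly6g, Mpo and Ngp stayed near 0 there, at means of 0.067, 0.081 and 0.10 CPM. The part of these cells in the levels of C3ar1 and C3 was not tested.

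Compared per length, the order of the 9 transcripts turned over between groups. In untreated retinas, C1qb was first at 22.5 ± 5.10 RPKM (SD, n = 3), followed by C1qa (14.7 ± 4.39) and C1qc (10.2 ± 2.41), and the neighbours in this order overlapped. Serping1 followed at 4.00 ± 0.691 RPKM, and the remaining 5 were each below 1 RPKM. In control, Serping1 came first at 19.8 ± 0.787 RPKM, overlapping with C1qb (17.9 ± 1.63), while C4b was at 7.46 ± 0.609 and C3 at 3.91 ± 0.208. In RVO, C3 came first at 23.7 ± 8.27 RPKM, ahead of Serping1 (20.6 ± 2.05) and C1qb (14.7 ± 4.30), and the ranges of C3 and Serping1 overlapped. Cfb and C2 were last in all 3 groups and overlapped with each other.

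The 3 C1q chains made up 88.2 ± 0.919% of the summed RPKM of the 9 genes in untreated, 56.4 ± 1.87% in control and 37.6 ± 8.31% in RVO samples. The sum itself was 53.6 ± 12.6 RPKM in untreated, 75.2 ± 2.13 in control and 90.0 ± 5.99 in RVO. C3 took 1.19 ± 0.229%, 5.20 ± 0.350% and 26.4 ± 9.36% of it. C4b held 9.93 ± 0.867% in control and 9.99 ± 0.523% in RVO, and Serping1 26.3 ± 1.70% and 22.8 ± 1.15%. These shares describe RNA, and they are not amounts of protein.

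**Figure D4:**
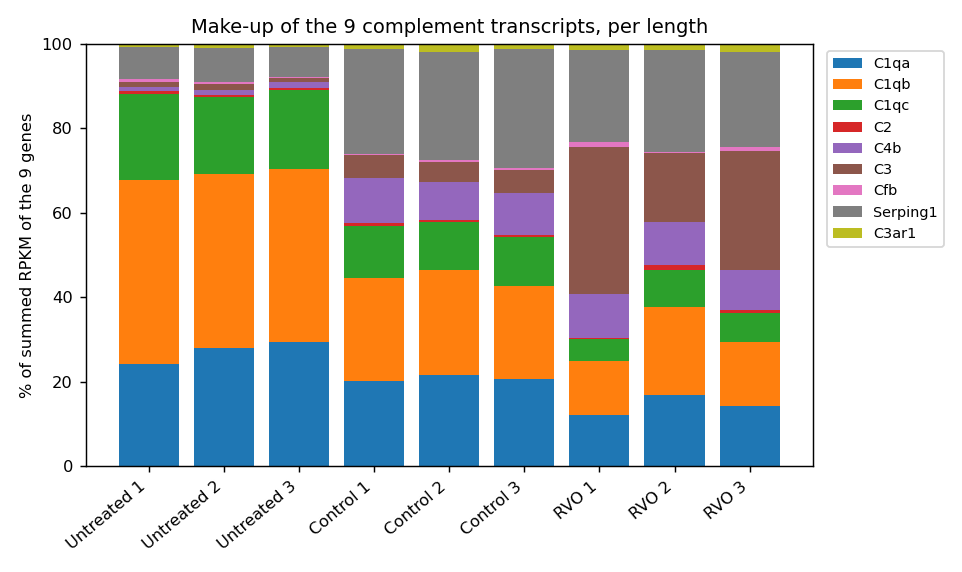
Share of each gene in the summed RPKM of the 9 complement genes (percent, linear axis) in each of the 9 pools; colours are genes. The C1q chains hold 87.4 to 89.2% in untreated and 30.02 to 46.5% in RVO samples, and the share of C3 runs from 0.931 to 1.36% in untreated to 16.3 to 34.8% in RVO.

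Within the RVO group, the genes fell into different orders. C3 and Cfb were highest in RVO 1 and lowest in RVO 2, with ratios of highest to lowest of 2.07 and 2.58. The 3 C1q chains and C2 had the reverse order, highest in RVO 2 and lowest in RVO 1, with ratios of 1.45 to 1.79 for the chains and 2.97 for C2. C4b, Serping1 and C3ar1 differed by no more than 1.23-fold among RVO samples. RVO 2 was also the RVO sample with the highest summed microglia markers (85.3 CPM), pigment epithelium markers (512.2, against 249.9 and 345.0), endothelial markers (246.8, against 135.1 and 180.6) and lens markers, and with the lowest neutrophil markers (34.6). The part of these cells in the order of the complement genes was not tested. With 3 samples, an order is a description and has no test.

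Other complement genes of the same cascade were measured at widely differing levels. Of the 45 listed, 12 had at most 3 counts in every sample, among them Mbl1 and Mbl2 of the lectin pathway, factor D (Cfd) and the terminal components C6, C7, C8a, C8b and C9. In RVO against untreated, 11 of 24 tested were higher and 4 lower, in control 13 and 3 of 24, and in RVO against control 1 and 0 of 25, beside the shares of all genes given above. Their median log2 fold changes were 0.56, 0.45 and -0.11. DESeq2 called 4 lower in RVO than in control, and 9 of the 25 were lower at an unadjusted p under 0.05 in edgeR. In that DESeq2 test, 23.7% of all 17050 genes tested were called in either direction.

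The proteases of C1 rose, unlike the C1q chains they bind. C1ra had 3 to 8 counts per untreated sample, 54 to 78 in control and 146 to 273 in RVO, with a mean of 0.401 ± 0.208, 3.07 ± 0.295 and 7.42 ± 1.25 CPM (SD, n = 3). It was 18.8-fold higher in RVO than untreated (edgeR adjusted p = 2.9e-05) and 2.42-fold higher than in control (log2 1.28 ± 0.18, adjusted p = 0.0089), the only one of the 45 that edgeR called there. DESeq2 called 6 of them higher, C1s1 (adjusted p = 7.4e-04) and Colec12 (2.0e-04) among them. It called 23.7% of all genes tested in either direction there. The edgeR call of C1ra against control was lost when control 1, control 2, control 3, RVO 1 or RVO 3 was left out. Its edgeR adjusted p in those fits was 0.019 to 0.057. C1s1 rose 5.93-fold in RVO and 3.01-fold in control. Colec12, a scavenger receptor with a collectin domain, rose 2.19-fold in RVO against untreated (adjusted p = 7.1e-04), while its value in control was not called.

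Regulators went in both directions. Clu (clusterin), the most abundant with Vtn (vitronectin), rose 1.48-fold in RVO and 1.88-fold in control against untreated, and Cfi (factor I, which cleaves C3b and C4b) rose 4.50-fold in control, from 1.22 ± 0.234 to 5.45 ± 1.81 CPM. In RVO, Cfi was at 2.54 ± 1.28 CPM, overlapped with untreated and was not called against untreated (log2 1.07, edgeR adjusted p = 0.065) or control (-1.11, adjusted p = 0.078). Cd46, a membrane cofactor, fell by 1.34 in RVO, and Csmd1, another membrane inhibitor, was 4.00-fold lower in RVO and 2.09-fold lower in control. With GC and length trends removed, Cd46 in RVO (-0.58) and Csmd3 in control (-0.32) were no longer called, and Clu in RVO reversed to -0.089. The call of Clu in RVO was also lost without any 1 of untreated 1, 2 or 3 or RVO 3 (edgeR adjusted p = 0.013 to 0.030). The call of Cd46 in RVO was also lost without any 1 of 5 samples, namely untreated 1, 2 or 3, RVO 1 or RVO 3.

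Of the other receptors, C5ar1, Itgam, Itgax and Itgb2 rose in both lasered groups. C5ar1, the C5a receptor, rose 7.77-fold in RVO and 3.20-fold in control, the latter not called without untreated sample 1 or 2 (edgeR adjusted p = 0.011 and 0.015). Itgam, the alpha chain of complement receptor 3, rose 4.21-fold and 1.99-fold, and Itgb2, its beta chain, 6.35-fold and 3.25-fold. Itgax, of complement receptor 4, had 1 count in each untreated sample, 13 to 34 in control and 43 to 79 in RVO, too few in untreated for a fold. Between RVO and control, edgeR called none of these 4, with log2 fold changes of 0.96 to 1.26 and adjusted p of 0.012 to 0.056. DESeq2 called C5ar1 (adjusted p = 1.1e-04), Itgam (1.4e-05) and Itgb2 (3.0e-05) higher in RVO, as did edgeR without a filter on low counts, with all 9 samples in one fit and without RVO sample 2. Of all genes tested, these fits called 23.7%, 11.1%, 22.5% and 36.4% in either direction, in that order. Vsig4, another C3b receptor, was among the genes at the count floor.

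**Figure D5:**
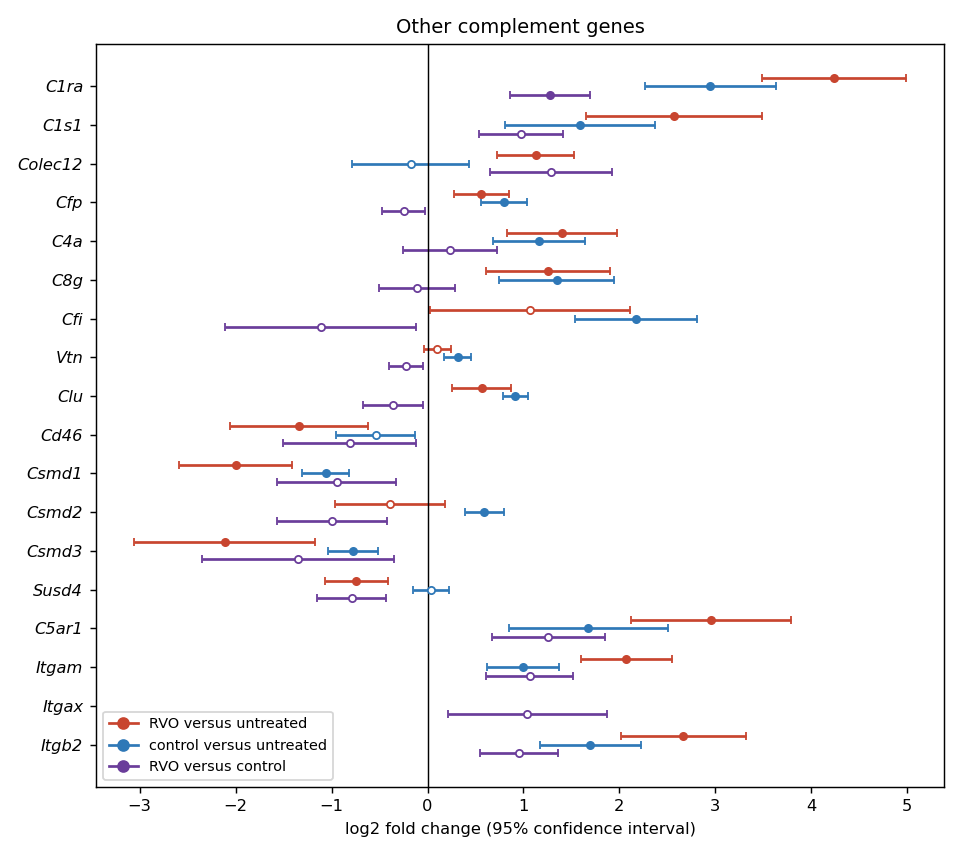
Log2 fold changes with 95% confidence intervals of other complement genes called in at least 1 comparison; filled points passed an adjusted p of 0.01 in edgeR, open points did not, and Itgax, with 1 count per untreated sample, is shown only for RVO versus control. C1ra is the only filled point for RVO versus control (1.28).

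Genes beside the 9 on the chromosome were examined as well. The neighbours of the C1q cluster, Ephb2 and Epha8, stood at log2 fold changes of 0.64 and -0.21 in RVO against untreated. Between Tnxb and Ehmt2 on chromosome 17 lies the stretch that holds C4b, Cfb and C2. All 8 other tested genes there were called higher in RVO than untreated, with log2 fold changes of 0.68 to 1.61. In control, 7 of 8 were. Of all genes tested, 27.4% and 27.2% were called higher in these comparisons. None of the 8 was called between RVO and control in edgeR (log2 -0.11 to 0.67). C4b exceeded all 8 in both lasered groups. The neighbours of C3, Gpr108 and Trip10, rose by 0.44 and 0.36 on the log2 scale in RVO against untreated. Tnfsf14, another gene beside C3, had 0 counts in untreated samples, 0 to 8 in control and 11 to 40 in RVO, and was not called between RVO and control (log2 2.53, edgeR adjusted p = 0.038). Ube2l6, a conjugating enzyme for ISG15 next to Serping1, rose 4.63-fold in RVO and 3.70-fold in control. Gm19426, also near Serping1, had 2 to 3 counts in untreated, 28 to 39 in control and 33 to 41 in RVO samples, and it was called higher in both lasered groups. Ypel4, near Serping1 too, was called lower in RVO than untreated (log2 -0.81, edgeR adjusted p = 0.0040). Foxj2 beside C3ar1 was not called in any comparison. On its other side, Necap1 was called lower in RVO than untreated (log2 -0.49, edgeR adjusted p = 6.4e-04). Clec4a1, with 2 to 3 counts in untreated and 17 to 24 in RVO, was called higher.

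Genes with the most similar profiles were found as those with the smallest root mean square difference over the 9 samples, on log2(CPM + 1) centred on the untreated mean, among 17112 genes. For C3 these included Hsd17b2 (0.206), a steroid dehydrogenase, and Tnfrsf12a (0.318), the TWEAK receptor. C1qb and C1qc were each other's nearest gene of all (0.113), while for C1qa the nearest of the 9, C1qb (0.37), was in position 5805. The gene nearest to C1qa, Npffr1 (0.102), was at group means of 0.285 to 0.557 CPM, where the added 1 CPM compresses changes. The position therefore does not measure how closely C1qa followed the other chains. For C4b the nearest were Crym (0.367), H2-D1 (0.387) and Jak3 (0.394), and for Serping1 Cela1 (0.188), Rps21 (0.203) and Tuba1b (0.207). Ptgds (0.152), Dse (0.169) and Mfrp (0.185) were nearest to C2. For C3ar1 they were Mpzl1 (0.0966), Mical1 (0.099) and 2410015M20Rik (0.128), and for Cfb Noc2l (0.0779), Usp43 (0.0816) and Nsun2 (0.0945). The added 1 CPM compresses the changes of scarce genes such as Cfb and C2. In RVO against untreated, Cfb had a log2 fold change of 1.37 and its nearest gene, Noc2l, 0.82.

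Reactive glia genes rose along with C4b and Serping1. Of 13 genes listed as pan-reactive in astrocytes, with Lcn2, Steap4, S1pr3 and Timp1 first, all 13 were higher in both lasered groups. Steap4, Cd44 and Vim were higher in RVO than in control, where 2.7% of all genes were called higher. These calls against control were lost when control 2, control 3 or RVO 3 was left out, where edgeR called 0 of all genes. Of 10 genes of the A1 list, 8 were higher in RVO and 8 in control, and of the A2 list 10 of 11 tested and 7 of 10. Of all genes tested, 27.4% in RVO and 27.2% in control were called higher, and 24.6% and 25.2% lower. Gfap, the intermediate filament of reactive glia, was at 20.7 to 21.2 CPM in untreated, 218.7 to 358.6 in control and 159.1 to 256.6 in RVO. The ratio of C4b to Gfap CPM was 0.142 to 0.238 in untreated, 0.110 to 0.211 in control and 0.199 to 0.343 in RVO, so that these ranges overlapped between all pairs of groups. Of 8 Müller cell and astrocyte markers, Rlbp1, Glul, Aqp4 and Abca8a were lower in both lasered groups, against the rise of Gfap in both and of Kcnj10 in control. Endothelial markers summed to 151.0 to 158.2 CPM in untreated, 292.8 to 326.8 in control and 135.1 to 246.8 in RVO, and pigment epithelium and melanocyte markers to 370.3 to 402.0, 273.4 to 302.8 and 249.9 to 512.2. The part of these cell types in the levels of the complement genes was not tested.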

How the data were processed

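Retinal poly-A RNA was sequenced from strand-marked libraries, and the authors mapped reads with STAR 2.5.2b and counted them per gene with featureCounts (Subread 1.5.1) on Gencode vM11. The deposited values are raw counts per gene. The strand setting and the handling of reads that match several genes are not given in the sources used here, so overlapping and near-identical genes are uncertain. The 92 spike-in names were left out.

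Samples were grouped by their titles. Each pair of groups was fitted alone with edgeR 4.0.16 in R 4.3.3 (filterByExpr, TMM, quasi-likelihood test, Benjamini-Hochberg adjustment over all genes tested, threshold 0.01), and the fits were tested on simulated data. DESeq2 1.42.0 was an alternative, as were other scalings, no filter, all samples in one fit, the replicate number as a block and leaving out each sample. The GC content and length correction was added after seeing the data. CPM used TMM over all 9 samples, and RPKM divided it by exonic length. Positions and lengths came from Gencode vM21 (GRCm38), which matched 46366 of 48679 names. Intervals are 95%. The members and gene lists were chosen with earlier results of these data known. Besides the 9 genes, the named genes are other complement genes called in any comparison or at the count floor of 3, the first 4 of each marker list and those called against its median, 3 nearest profiles per gene and the nearest 2 tested genes on each side; others named were chosen after their values were seen. Results for some genes that this rule names are not reported here.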

Additional observations from a re-analysis of the deposited data

How the results depend on the processing

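Against untreated retinas, C3, C4b, Serping1 and C3ar1 kept their direction and their call in RVO and in control under all 13 alternatives. With no filter, Cfb and C2 were also called higher in RVO, which made 6 of 9 genes. That fit called 31.6% of all 29196 genes tested in either direction. The number of the 9 genes lower in RVO than untreated moved from 0 to 3 with GC and length trends removed, to 2 at an adjusted p of 0.05, and ranged from 0 to 2 when 1 sample was left out. In control it moved from 0 to 3 with those trends removed and ranged from 0 to 1 when 1 sample was left out. For RVO against control, the number higher moved from 1 to 2 with no filter, in DESeq2, with all 9 samples in one fit and at 0.05, to 0 with the replicate block, and ranged from 0 to 2 when 1 sample was left out, while the number lower ranged from 0 to 3.

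Of the other 45 genes, the number lower in RVO than untreated moved from 4 to 7 at 0.05 and ranged from 1 to 7 when 1 sample was left out. In control it moved from 3 to 1 with all 9 samples in one fit and to 6 at 0.05. The fit of all 9 samples called 37.4% of all genes tested there. For RVO against control, the number higher moved from 1 to 6 with no filter, in DESeq2 and at 0.05, to 5 in the fit of all 9, to 0 with the block and to 4 with GC and length trends removed, and ranged from 0 to 7 when 1 sample was left out. The number lower moved from 0 to 2 with no filter, 4 in DESeq2 and at 0.05, 3 in the fit of all 9 and 1 with those trends removed, and ranged from 0 to 6.

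Log2 fold changes changed sign as follows. C1qa in RVO against untreated became 0.061 with library size only and ranged from -0.31 to 0.12 when 1 sample was left out. In control C1qa became -0.68 with GC and length trends removed and ranged from -0.049 to 0.37 when 1 sample was left out, below 0 without untreated 1 or 2. Cfb in control became 0.076 with library size only and ranged from -0.21 to 0.030, above 0 without untreated 1. Serping1 in RVO against control became -0.034 with GC and length trends removed and -0.039 without RVO 2. With those trends removed, Cfp (-0.14), Vtn (-0.54) and Clu (-0.089) reversed in RVO against untreated, and Colec12 (0.18), Vtn (-0.19), Cd46 (0.0043) and Susd4 (-0.33) in control. When 1 sample was left out, Colec12 in control ranged from -0.56 to 0.043, above 0 without control 3, and Susd4 from -0.067 to 0.094, below 0 without untreated 1 or control 3. With the block, C3 in RVO against control was 2.54 (edgeR adjusted p = 0.031) and C1ra 1.27 (0.031), and neither was called, while Cfb in RVO against untreated was called (1.29, 0.0072). The cause was not tested.

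Over all genes, edgeR called 563 between RVO and control, against 6257 without RVO 2, 29 without RVO 1, 1 without control 1, 0 without control 2, control 3 or RVO 3, 4038 in DESeq2, 3309 with no filter, 3853 in the fit of all 9 samples, 892 with library size only and 1498 with GC and length trends removed. With the replicate number as a block it called 0, although 7227 genes had an unadjusted p under 0.05. The labels do not say that a number marks fellow eyes, and same-numbered RVO and control samples correlated in their deviations at -0.19, -0.18 and 0.11, so the numbers were not taken as pairs, and not every sample correlated best with its own number. Library size only moved the median of all genes by 0.22 (RVO) and 0.19 (control) on the log2 scale against untreated. Counts of 9 to 20 per sample limit Cfb in untreated and control samples.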
